A study of Homo sapiens with 16 samples.

Results

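The genes described here are the human selenoproteins and the enzymes and factors that make, insert and recycle selenocysteine, measured in human embryonic stem cells after knockdown of SEPHS1 and of 3 other genes. They were chosen by gene name and not by their values, and number 30 of the 60675 identifiers in the table of read counts. Of these 30 genes, 25 encode selenoproteins and 5 (PSTK, SEPSECS, SECISBP2, EEFSEC and SCLY) encode factors that hold no selenocysteine themselves. SEPHS2 is a selenoprotein and also the enzyme that makes the selenium donor.

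Selenocysteine is inserted at a UGA codon that would otherwise end translation. The enzyme SEPHS2 makes selenophosphate, PSTK phosphorylates the serine that SARS1 has loaded onto the selenocysteine tRNA, and SEPSECS turns it into selenocysteine on that tRNA. SECISBP2 binds a stem-loop in the 3′ end of the messenger RNA and the elongation factor EEFSEC brings the charged tRNA to the ribosome, while SCLY recovers selenium from free selenocysteine. SEPHS1 is the paralogue of SEPHS2 that has no selenocysteine in its active site and is known not to make selenophosphate efficiently. Messenger RNAs in which selenocysteine insertion fails can be degraded by nonsense-mediated decay when the codon lies well before the last exon junction, and the message of the glutathione peroxidase GPX1 is the textbook case.

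The cells came from the embryonic stem cell line H9 and carried EGFP under the REX1 promoter. Cells received siRNA against SEPHS1 or DSCC1 and were harvested after 72 h, or against SALL4 or VRTN with harvest after 48 h (n = 3 replicates each). The controls received siRNA against Renilla luciferase or a siRNA labelled Control (n = 2 each), whose target the labels leave unnamed, and no harvest time is given for either. The siRNAs against the 4 genes were commercial pools, and transfection used 30 to 50 nM siRNA. Those against SEPHS1, DSCC1, SALL4 and luciferase were esiRNAs, pools cut by enzyme from a long double-stranded RNA, and the one against VRTN came from another supplier. SALL4 is a transcription factor of pluripotent cells, DSCC1 takes part in sister chromatid cohesion, and VRTN encodes vertnin. Each knockdown was compared with the mean of both control siRNAs, and knockdowns of the same harvest time were compared with each other. In a bulk RNA sample, fewer cells of a type and less RNA per cell cannot be told apart.

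The sequences around the selenocysteine codon are shown for the selenoproteins to which the results return, with the codon of SEPHS1 that aligns to that of SEPHS2, so that the reader can see what each message carries at the site where insertion has to succeed. Capitals mark the TGA selenocysteine codon, and ACA, a threonine codon, in SEPHS1. All are DNA sense strands, 5′ to 3′, with 12 bases on each side, from GENCODE 29 transcripts on GRCh38.
SEPHS1: gaactgaagggcACAggctgcaaagtg
SEPHS2: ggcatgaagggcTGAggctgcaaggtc
SELENOF: gaagtttgtggaTGAaaattgggaagg
SELENOM: acctgcgggggaTGAcagctgaaccgc
GPX1: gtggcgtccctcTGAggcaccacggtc
GPX4: gtggcctcccagTGAggcaagaccgaa
TXNRD1: caggctggctgcTGAggttaagcccca
SELENOI: ccaaactcagatTGActaggaatggaa
SELENOW: tattgtggcgctTGAggctacaagtcc

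The SEPHS1 codon is codon 29 of its message (chr10:13344864-13344866, minus strand) and aligns to codon 60 of SEPHS2 (chr16:30445548-30445550, minus strand). The 2 proteins were identical at 76.0% of 391 aligned codons. In SELENOF the codon is number 96 of 165 (chr1:86880690-86880692, minus strand) and in SELENOM number 48 of 145 (chr22:31105951-31105953, minus strand). In GPX1 it is number 49 of 203 (chr3:49358132-49358134, minus strand) and in GPX4 number 73 of 197 (chr19:1105403-1105405, plus strand). TXNRD1 carries it as codon 498 of 499 (chr12:104348413-104348415, plus strand), the last residue but one of the protein. In SELENOI it is codon 387 of 397 (chr2:26389068-26389070, plus strand), and in SELENOW codon 13 of 87 (chr19:47780732-47780734, plus strand). Over all 25 selenoproteins, 15 have the first such codon more than 50 bases before the last exon junction of the transcript used, and 10 do not, among them TXNRD1, SELENOI, MSRB1 and the intronless SEPHS2.

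The 16 libraries held 18597262 to 28662389 counts each, and 3 counts, taken as the floor of detection, came to 0.105 to 0.161 CPM (counts scaled to a common library size) of a library's total. Of 10 pluripotency markers 9 reached 1 CPM in each group, with a summed level of 4370 to 4640 CPM in SEPHS1 siRNA libraries, 3470 to 3630 in SALL4 siRNA libraries and 4360 to 5040 in control libraries. The tenth, ZFP42, which encodes REX1, had no count in any of the 16 libraries. Markers of endoderm summed to at most 21.1 CPM and markers of trophoblast to at most 7.12 CPM in any library. Markers of neuroectoderm summed to 110 to 145 CPM in SALL4 siRNA libraries, 141 to 190 in SEPHS1 siRNA libraries and 167 to 180 in control libraries. Markers listed for mesenchyme summed to 1550 to 1840 CPM in SEPHS1 siRNA libraries, 796 to 1710 in SALL4 siRNA libraries, 795 to 1210 in VRTN siRNA libraries and 1830 to 2070 in control libraries, and their part in the results was not tested. At least 10 counts were reached by 14725 to 15920 genes in SEPHS1 siRNA libraries and by 15636 to 16542 in control libraries, a difference in detected genes whose part in the results was likewise not tested.

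The level of a gene per kilobase of its annotated exons gives a rough scale on which genes can be set beside each other. The length is the union of exons over all annotated transcripts, which can exceed that of the transcript expressed and so lower the level. It was 1.43 kb for GPX1 and 5.26 kb for SELENOW, and the order of genes depends on it. In control libraries GPX1, the cytosolic glutathione peroxidase, was the highest of the 30 genes, at 193 ± 13.4 CPM per kb (SD, n = 4). SELENON, an endoplasmic reticulum protein linked to calcium handling, GPX4, which reduces lipid hydroperoxides, and GPX3, the secreted peroxidase, followed at 64.1 ± 6.15, 55.5 ± 3.32 and 43.0 ± 8.16 CPM per kb. The ranges of SELENON and GPX4 overlapped, as did those of GPX4 and GPX3, while no control library of GPX1 reached down to the range of SELENON. SELENOW, a small thioredoxin-fold protein, and MSRB1, which repairs oxidised methionine, averaged 23.5 ± 1.40 and 21.3 ± 3.04 CPM per kb and overlapped each other. The next gene down, SELENOF, was at 7.45 ± 1.11 CPM per kb. TXNRD1, the cytosolic thioredoxin reductase, stood at 4.33 ± 0.639 and SEPHS2 at 2.22 ± 0.170 CPM per kb.

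**Figure D1:**
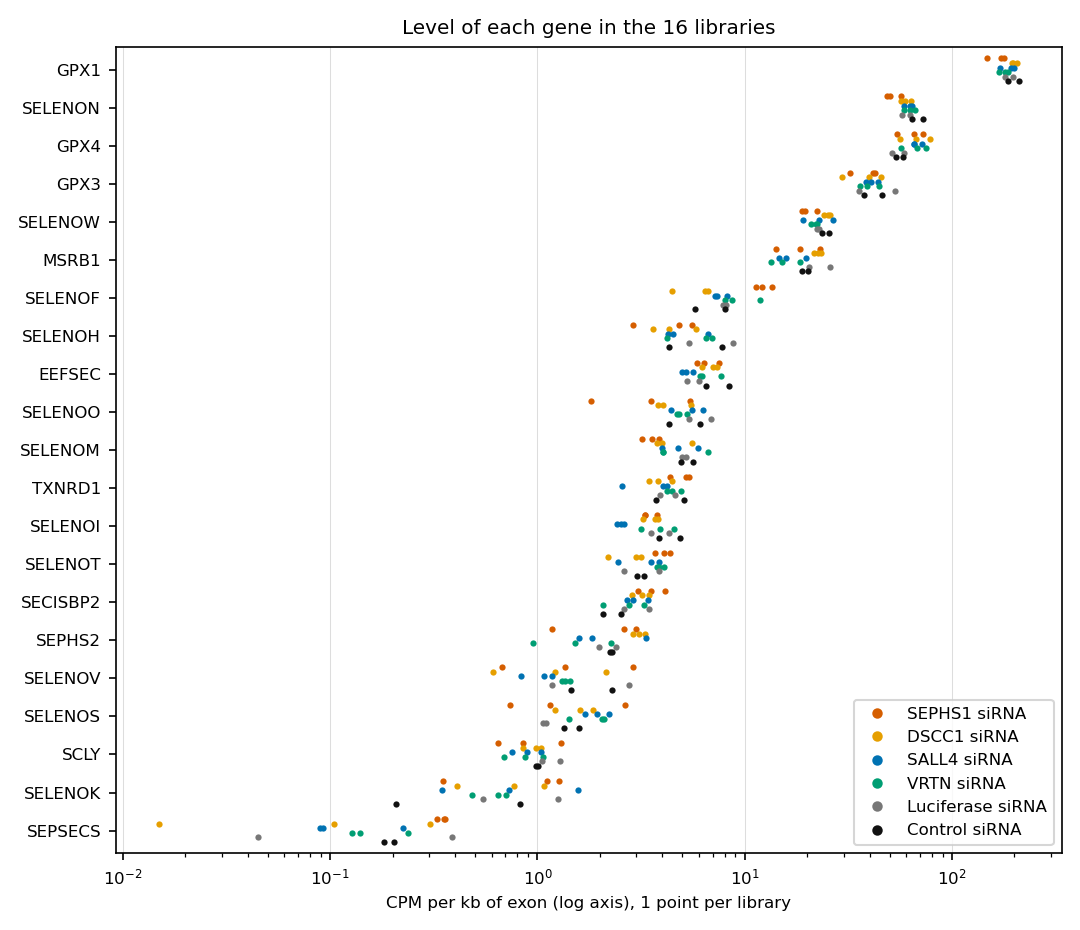
Level of the 21 genes with a count in all 16 libraries, in CPM per kb of exon on a log axis, 1 point per library coloured by siRNA, ordered by the control mean. GPX1 sits highest at about 193 CPM per kb in controls, and the lowest genes, SELENOK and SEPSECS, scatter most between libraries.

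Detection separated the genes into 3 tiers. DIO1, which activates thyroid hormone, and GPX6, an olfactory glutathione peroxidase, had 0 counts in all 16 libraries. Another 10 genes averaged under 2 on the log2 CPM scale. Among them DIO2 had counts in 3 libraries (0 in 13), TXNRD3, the testis thioredoxin reductase, was at 0 in 8 libraries, DIO3 at 0 in 7 and GPX2 at 0 in 4. The mitochondrial reductase TXNRD2, the plasma selenium carrier SELENOP, SELENOK, SELENOV, PSTK and SEPSECS were the rest of these 10. The 28 genes with counts all entered the test, over 19772 genes, and the remaining 18, averaging at least 2 log2 CPM, carry the comparisons. PSTK and SEPSECS, the 2 enzymes that turn the serine on the tRNA into selenocysteine, were in the sparse tier. PSTK had 2, 19 and 19 counts in SEPHS1 siRNA libraries, 0, 12 and 20 in DSCC1, 18, 0 and 6 in SALL4, 18, 13 and 40 in VRTN, 15 and 16 in Luciferase and 5 and 56 in Control libraries. SEPSECS had 45, 48 and 38 counts in SEPHS1 siRNA libraries, 14, 48 and 2 in DSCC1, 17, 37 and 13 in SALL4, 36, 16 and 21 in VRTN, 51 and 7 in Luciferase and 33 and 37 in Control libraries. For both genes the SEPHS1 siRNA libraries overlapped the controls, and a change of PSTK or SEPSECS was not detectable at this depth, since the 95% interval of the log2 fold change ran from -3.34 to 2.71 for PSTK and from -1.18 to 2.71 for SEPSECS.

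SEPHS1 itself, the target of the knockdown, had 79.3, 49.1 and 54.2 CPM in SEPHS1 siRNA cells, 358, 350 and 349 in DSCC1 siRNA cells, 174, 197 and 249 in SALL4 siRNA cells, 397, 347 and 317 in VRTN siRNA cells, 381 and 404 in Luciferase and 413 and 440 in Control cells. It was thus lowered to 14.9% of the controls in SEPHS1 siRNA cells (log2 fold change -2.75, SE 0.14, edgeR quasi-likelihood adjusted p = 9.09e-15). The SALL4 siRNA libraries also lay below all 4 controls, at 50.4% of their mean (-0.99, SE 0.13, adjusted p = 1.13e-05), so that SEPHS1 mRNA was called lower in 2 of the 4 knockdowns. SALL4 siRNA cells stood below VRTN siRNA cells as well, by -0.78 (SE 0.14, adjusted p = 7.79e-04). In DSCC1 and VRTN siRNA cells the log2 differences of SEPHS1 were -0.22 (95% interval -0.48 to 0.05) and -0.21 (-0.48 to 0.06), with adjusted p of 0.85 and 0.637. The DSCC1 siRNA libraries nevertheless all lay below the 4 controls, while those of VRTN overlapped them. The other targets were lower than in controls to unequal degrees: VRTN averaged 21.3 CPM in VRTN siRNA cells and 143 in controls (adjusted p = 2.04e-16), SALL4 213 CPM in SALL4 siRNA cells and 274 in controls (adjusted p = 0.0562), and DSCC1 0.806 CPM in DSCC1 siRNA cells and 3.93 in controls (adjusted p = 0.486). SALL4 and DSCC1 did not pass the test, although each of their 3 knockdown libraries lay below all 4 controls. For DSCC1, a sparse gene, this was not particular to its own siRNA. Its level was 0.245, 1.79 and 3.27 CPM in SEPHS1 siRNA cells and 2.73, 1.88 and 2.88 CPM in VRTN siRNA cells. Those values too were all below the lowest control, at 3.3 CPM.

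With SEPHS1 lowered, no selenoprotein or synthesis gene passed the test against the controls: 0 of 28 were called by edgeR at an adjusted p under 0.05, where 1.53% of all 19772 genes were called (119 higher, 184 lower). DESeq2 called 2 of them and 533 genes in all, and limma-voom 0 of them and 158 genes in all. At an unadjusted p under 0.05 there were 6 genes, all among the 18 better measured ones, where 18.4% of all genes at that level were below it. For 13 of these 18 the 95% interval lay within a 2-fold change either way. The median log2 fold change of the 18 was -0.17, with 8 above zero and 10 below, and of all genes at that level -0.03 with 46.0% above zero. Libraries of SEPHS1 siRNA all lay above the controls for 1 of the 18 genes and all below for 3, against 7.8% and 10.4% of all genes at that level.

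**Figure D2:**
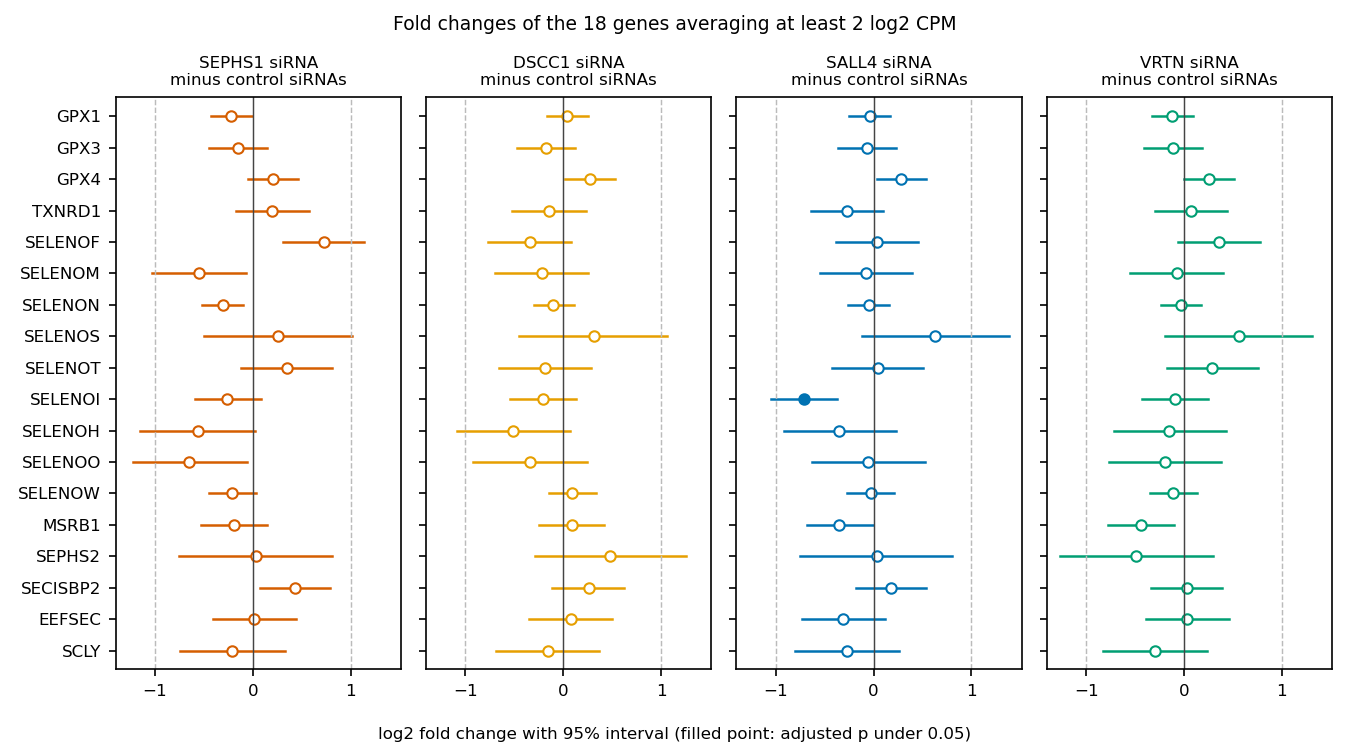
Log2 fold change of the 18 genes averaging at least 2 log2 CPM in each knockdown minus the control siRNAs, with 95% intervals, dashed lines at a 2-fold change and filled points where the adjusted p was under 0.05. SELENOI in SALL4 siRNA cells (-0.71) is the filled point, and SELENOF in SEPHS1 siRNA cells (0.73) lies farthest to the right in its panel.

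SELENOF, a thioredoxin-like protein of the endoplasmic reticulum that binds the glycoprotein folding sensor UGGT1, had the smallest adjusted p of the 28 genes. It had 26.6, 25.0 and 29.7 CPM in SEPHS1 siRNA cells, 9.80, 14.2 and 14.7 in DSCC1, 15.8, 18.1 and 16.1 in SALL4, 17.6, 19.2 and 26.2 in VRTN, 17.9 and 17.2 in Luciferase and 12.7 and 17.7 in Control cells. All 3 SEPHS1 siRNA libraries were above every control and every DSCC1 and SALL4 library, and VRTN replicate 3 lay within their range. The log2 fold change was 0.73 against the controls (SE 0.20, 95% interval 0.31 to 1.14), with an adjusted p of 0.0643, so the gene missed the threshold. It was called with no filter on low counts (adjusted p = 0.0409), with DESeq2 (adjusted p = 0.0248) and without Control replicate 2 (adjusted p = 0.0477). Over all alternatives the log2 fold change lay between 0.62 and 0.86 and the adjusted p between 0.0248 and 0.484.

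Against DSCC1 siRNA cells, harvested at the same 72 h and sharing no control library, SELENOF was the 1 gene of the 28 that passed, and it was higher, where 0.268% of all genes passed and 0.0303% were higher. It averaged 27.1 ± 2.4 CPM in SEPHS1 siRNA cells and 12.9 ± 2.68 CPM in DSCC1 siRNA cells (SD, n = 3 each), a log2 fold change of 1.07 (SE 0.22, 95% interval 0.62 to 1.53, adjusted p = 0.0204), higher in 3 of 3 SEPHS1 siRNA libraries than in any DSCC1 library. The gene no longer passed without SEPHS1 replicate 1 (adjusted p = 0.052) or 3 (adjusted p = 0.0738), without DSCC1 replicate 1 (0.91, adjusted p = 0.19) or 2 (adjusted p = 0.0698) and with limma-voom (adjusted p = 0.0581). Part of the distance lay on the side of the DSCC1 siRNA cells, in which SELENOF differed from the controls by -0.34 (95% interval -0.77 to 0.08, adjusted p = 0.85).

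**Figure D3:**
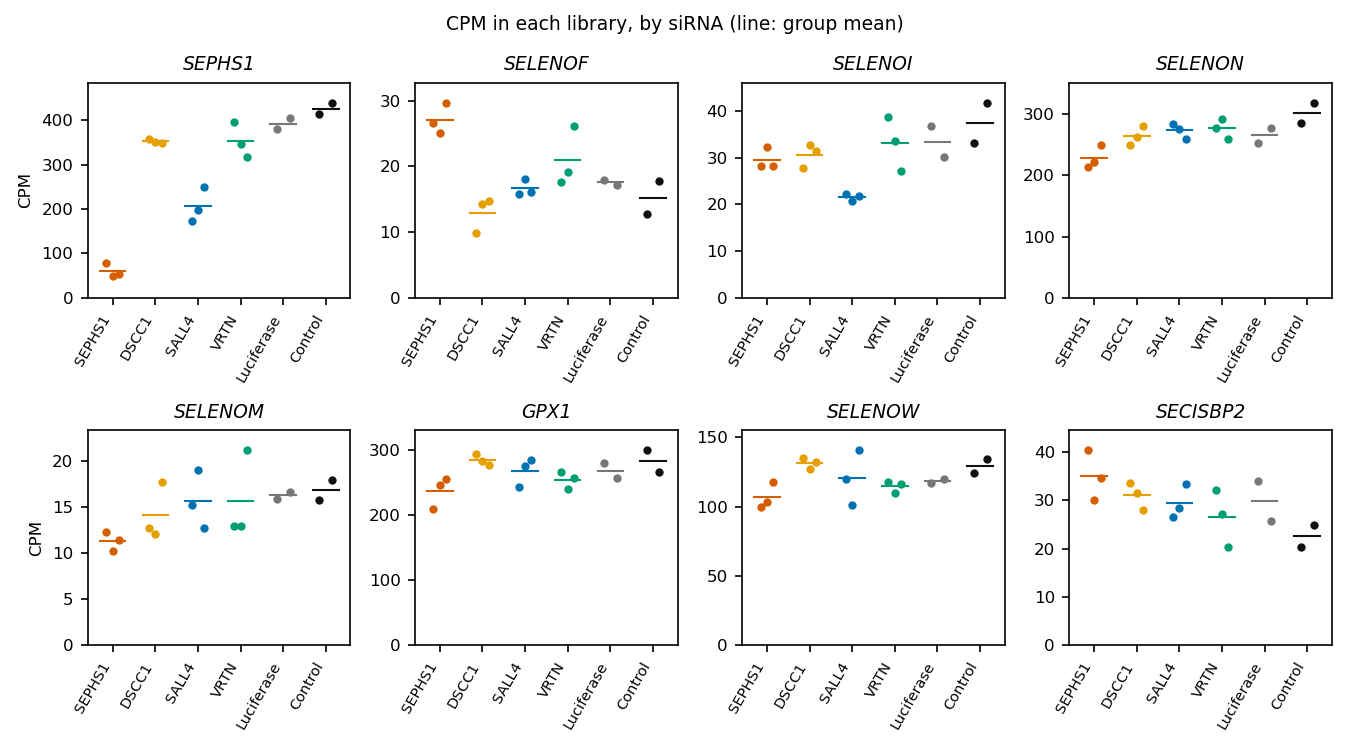
CPM of SEPHS1 and 7 further genes in each library, grouped by siRNA, with a line at each group mean. SELENOF has its highest group mean in SEPHS1 siRNA cells (25.0 to 29.7 CPM), with VRTN replicate 3 (26.2 CPM) inside that range. SELENOI is lowest in the 3 SALL4 siRNA libraries (20.7 to 22.3 CPM).

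The other selenoproteins of the endoplasmic reticulum lay on both sides of the controls in SEPHS1 siRNA cells, and none was called. SELENON had 214, 221 and 250 CPM in SEPHS1 siRNA cells against 253 and 278 in Luciferase and 285 and 319 in Control cells, all 3 below the 4 controls. Its log2 fold change was -0.31 (SE 0.10, 95% interval -0.52 to -0.10, adjusted p = 0.14), and DESeq2 called it (-0.28, adjusted p = 0.0442). SELENOM, a redox protein best known from brain, had 12.3, 10.2 and 11.4 CPM in SEPHS1 siRNA cells against 15.9 and 16.6 in Luciferase and 15.7 and 17.9 in Control cells, again without overlap (-0.55, 95% interval -1.03 to -0.07, adjusted p = 0.32). SELENOT, a thioredoxin-fold protein of the same membrane, and SELENOS, which takes part in removing misfolded proteins, overlapped the controls, with log2 fold changes of 0.35 (-0.12 to 0.81) and 0.26 (-0.50 to 1.01). Against DSCC1 siRNA cells 2 of the 18 genes, SELENOF and SELENOT, had all SEPHS1 siRNA libraries above and 3 (GPX1, SELENON and SELENOW) all below, where 7.51% and 11.6% of all genes at that level did. SELENOT stood at 15.3, 18 and 16.9 CPM in SEPHS1 siRNA cells and 9.11, 13.1 and 12.4 CPM in DSCC1 siRNA cells (0.54, 95% interval 0.04 to 1.04, adjusted p = 0.487). SELENOK averaged 1.96 CPM in SEPHS1 siRNA cells and 1.53 CPM in controls, too few reads for its interval (-1.17 to 2.01) to be informative.

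Among the peroxidases, GPX1 had 210, 246 and 256 CPM in SEPHS1 siRNA cells against 281 and 257 in Luciferase and 301 and 266 in Control cells. All 3 values were below the controls, the highest of them close to the lowest control, and the log2 fold change was -0.22 (SE 0.10, 95% interval -0.43 to -0.01, adjusted p = 0.369). With an interval this narrow, a fall of GPX1 mRNA by more than 0.43 on the log2 scale lay outside the 95% interval. GPX4 had 110, 132 and 146 CPM in SEPHS1 siRNA cells, 113, 136 and 158 in DSCC1, 132, 145 and 133 in SALL4, 137, 114 and 151 in VRTN, 104 and 118 in Luciferase and 117 and 109 in Control cells. The 4 knockdowns each averaged above the controls, by log2 fold changes of 0.21, 0.27, 0.28 and 0.26, comparisons that share the same 4 control libraries, and none passed the test (adjusted p = 0.502, 0.843, 0.313 and 0.533). GPX3 averaged 122 CPM in SEPHS1 siRNA cells and 136 CPM in controls (-0.15, 95% interval -0.45 to 0.15). GPX2, the epithelial peroxidase, had 0, 1 and 19 counts in SEPHS1 siRNA libraries and 6 to 31 in controls.

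The thioredoxin reductase TXNRD1 had 36.0, 34.9 and 29.4 CPM in SEPHS1 siRNA cells, 25.7, 29.9 and 23.2 in DSCC1, 17.1, 28.4 and 27.0 in SALL4, 33.2, 30.0 and 28.3 in VRTN, 26.2 and 30.8 in Luciferase and 25.0 and 34.3 in Control cells. Its log2 fold change in SEPHS1 siRNA cells was 0.20 (95% interval -0.17 to 0.57, adjusted p = 0.693), with overlapping libraries. The mitochondrial TXNRD2 ranged so widely between replicates, at 0, 31 and 81 counts in SEPHS1 siRNA libraries and 37 to 105 in controls, that its interval spanned -2.01 to 1.21. TXNRD3 had 0 counts in all 3 SEPHS1 siRNA libraries, 2, 4 and 0 in DSCC1, 28, 21 and 14 in SALL4, 4, 14 and 0 in VRTN, 1 and 0 in Luciferase and 0 and 0 in Control libraries. Its counts were thus highest in SALL4 siRNA cells, where edgeR gave an adjusted p of 0.28 and limma-voom 0.00719, and a fold change against a group at or under the floor of 3 counts is not given.

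Of the remaining selenoproteins, SELENOW, SELENOO, SELENOH, MSRB1, SELENOI and SELENOV averaged lower in SEPHS1 siRNA cells than in controls and SELENOP averaged higher, and none was called there. SELENOW had 99.9, 103 and 118 CPM in SEPHS1 siRNA cells, 135, 127 and 132 in DSCC1, 120, 101 and 141 in SALL4, 118, 110 and 116 in VRTN, 117 and 120 in Luciferase and 124 and 134 in Control cells. It overlapped the controls (-0.21, 95% interval -0.45 to 0.03, adjusted p = 0.46) and lay wholly below the DSCC1 siRNA libraries (-0.30, 95% interval -0.55 to -0.04, adjusted p = 0.441). SELENOO, a mitochondrial enzyme that attaches AMP to proteins, had 12.9, 8.32 and 4.26 CPM in SEPHS1 siRNA cells and 10.2 to 16.3 CPM in controls (-0.65, 95% interval -1.23 to -0.06, adjusted p = 0.343), and the log2 difference was -0.32 without SEPHS1 replicate 3 and -1.07 without SEPHS1 replicate 1. SELENOH, a nuclear redox protein, averaged 10.2 CPM in SEPHS1 siRNA cells and 15.1 CPM in controls (-0.56, 95% interval -1.15 to 0.02). MSRB1 averaged 40.2 CPM in SEPHS1 siRNA cells and 46.0 CPM in controls (-0.19, -0.53 to 0.14). SELENOI averaged 29.6 CPM in SEPHS1 siRNA cells and 35.4 CPM in controls, with overlapping libraries (-0.26, -0.59 to 0.08, adjusted p = 0.519). SELENOV, known mainly from testis, had 24 to 86 counts in SEPHS1 siRNA libraries and 51 to 116 in control libraries. SELENOP had 11 to 33 counts in SEPHS1 siRNA libraries and 0 to 38 in control libraries. Of the exon bases of SELENOP 36.1% lie opposite other annotated genes, and of those of SELENOO 9.69%. SELENOH shares 8.98% of its exon bases with another gene on the same strand, and SELENON 8.54%. The counts of these genes may include or lose reads of their neighbours.

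The synthesis machinery was not called in any comparison. SEPHS2, the active selenophosphate synthetase, had 2.99, 7.63 and 6.66 CPM in SEPHS1 siRNA cells, 8.42, 7.35 and 7.87 in DSCC1, 4.69, 4.05 and 8.56 in SALL4, 5.79, 2.43 and 3.86 in VRTN, 5.05 and 6.08 in Luciferase and 5.81 and 5.68 in Control cells. It averaged 5.76 CPM in SEPHS1 siRNA cells and 5.65 CPM in controls, with an interval of the log2 difference of -0.75 to 0.81 that leaves room for changes of over 1.5-fold in either direction. SECISBP2 had 40.5, 30.0 and 34.7 CPM in SEPHS1 siRNA cells, 33.7, 31.5 and 28.0 in DSCC1, 26.6, 28.5 and 33.4 in SALL4, 32.1, 27.1 and 20.3 in VRTN, 34.0 and 25.7 in Luciferase and 20.4 and 24.9 in Control cells. It averaged higher in SEPHS1 siRNA cells than in controls by 0.43 (95% interval 0.07 to 0.79, adjusted p = 0.288), with Luciferase replicate 1 inside the knockdown range.

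EEFSEC had 14.2, 18.1 and 15.4 CPM in SEPHS1 siRNA cells, 17.7, 15.1 and 17.0 in DSCC1, 12.0, 13.6 and 12.6 in SALL4, 15, 14.8 and 18.5 in VRTN, 12.7 and 14.6 in Luciferase and 15.8 and 20.4 in Control cells. Its log2 fold change in SEPHS1 siRNA cells was 0.01 (95% interval -0.41 to 0.44). EEFSEC and SELENOI were the 2 of 18 genes whose SALL4 siRNA libraries all lay below the VRTN ones, where 9.59% of all genes at that level did (EEFSEC -0.34, -0.79 to 0.11, adjusted p = 0.55). SCLY had 10, 15.2 and 7.53 CPM in SEPHS1 siRNA cells, 12.2, 10 and 11.6 in DSCC1, 12.2, 8.82 and 10.4 in SALL4, 12.5, 10.2 and 8.06 in VRTN, 15 and 12.4 in Luciferase and 11.8 and 11.5 in Control cells, all overlapping (-0.21, -0.74 to 0.33 in SEPHS1 siRNA cells). Of the exon bases of SCLY 19.7% are shared on the same strand with the readthrough gene UBE2F-SCLY, and of those of EEFSEC 15.3% lie opposite RUVBL1, so their counts may include or lose reads of these neighbours.

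Fold changes in SEPHS1 siRNA cells were set beside the position of the selenocysteine codon. Among the 9 of the 18 better measured genes whose codon lies more than 50 bases before the last exon junction (GPX1, GPX3, GPX4, SELENOF, SELENOM, SELENON, SELENOT, SELENOH and SELENOW), the median log2 fold change in SEPHS1 siRNA cells was -0.21, from -0.56 to 0.73, with 3 above zero. Among the 6 without such a codon (TXNRD1, SELENOS, SELENOI, SELENOO, MSRB1 and SEPHS2) it was -0.08, from -0.65 to 0.26, also with 3 above zero. The ranges overlap, and no test was made between groups of genes. In DSCC1, SALL4 and VRTN siRNA cells the medians were -0.18, -0.04 and -0.07 for the 9 genes and -0.03, -0.16 and -0.14 for the 6.

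**Figure D4:**
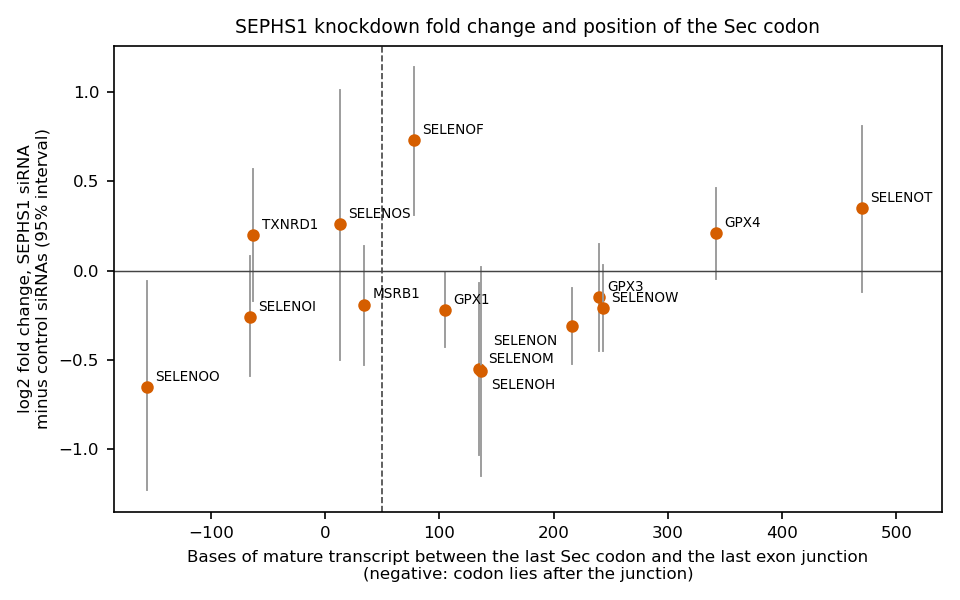
Log2 fold change in SEPHS1 siRNA cells minus controls, with 95% intervals, against the bases between the last selenocysteine codon and the last exon junction for 14 selenoproteins with a junction; the dashed line marks 50 bases. SELENOF (0.73) and the lower SELENOM and SELENOH (-0.55 and -0.56) all lie right of the line.

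In SALL4 siRNA cells 1 of the 28 genes was called, and it was lower, where 2.98% of all genes were called and 1.13% were lower. SELENOI, the ethanolamine phosphotransferase that makes phosphatidylethanolamine, had 22.3, 20.7 and 21.7 CPM in SALL4 siRNA cells, 28.2, 32.2 and 28.3 in SEPHS1, 27.7, 32.7 and 31.4 in DSCC1, 38.8, 33.5 and 27.1 in VRTN, 36.7 and 30.2 in Luciferase and 33.1 and 41.8 in Control cells. The 3 SALL4 siRNA libraries were below all 13 others. SELENOI fell to 60.9% of the controls (log2 fold change -0.71, SE 0.17, 95% interval -1.05 to -0.37, adjusted p = 0.0106). SELENOI missed the threshold without SALL4 replicate 2 (adjusted p = 0.0811), Luciferase replicate 1 (adjusted p = 0.0516) or Control replicate 2 (adjusted p = 0.0808), and with Luciferase alone as control (-0.63, adjusted p = 0.124) or the controls numbered 1 (-0.69, adjusted p = 0.094). Against VRTN siRNA cells of the same 48 h the difference was -0.62 (SE 0.18, 95% interval -0.98 to -0.26, adjusted p = 0.0541). There edgeR called 0 of 28 genes, and 2.44% of all genes (482). DESeq2 called 1 of the 28, SELENOI, and 688 genes in all, and limma-voom called SELENOI and 897 genes in all. At an unadjusted p under 0.05 there was 1 gene, where 18.9% of all genes averaging at least 2 log2 CPM were under it. The summed pluripotency, mesenchyme and neuroectoderm markers given above were also lower in SALL4 siRNA libraries than in any control library, and their part in the SELENOI result was not tested. Of the exon bases of SELENOI 5.95% lie opposite ADGRF3.

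GPX4 and SELENOS had all SALL4 siRNA libraries above the controls without passing the test. GPX4, with values given above, was above all controls (0.28, 95% interval 0.03 to 0.54), while SELENOS, at 6.39, 7.31 and 8.31 CPM in SALL4 siRNA cells against 4.15 and 4.00 in Luciferase and 5.98 and 5.07 in Control cells, was above them too (0.63, -0.12 to 1.38, adjusted p = 0.489). SALL4 siRNA libraries all lay above the controls for these 2 of the 18 better measured genes and all below for 1, SELENOI. Of all genes at that level 9.05% and 9.32% did so. In VRTN siRNA cells 0 of 28 genes were called by edgeR, DESeq2 or limma-voom, where 1.13% of all genes were called. MSRB1 was the 1 gene under an unadjusted p of 0.05, where 14.2% of all genes at that level were, and the 1 with all 3 libraries below the controls, where 9.49% were. It had 39.9, 29 and 32.5 CPM in VRTN siRNA cells against 43.9 and 55.6 in Luciferase and 43.5 and 41.0 in Control cells, without overlap (-0.44, 95% interval -0.78 to -0.10, adjusted p = 0.299). MSRB1 averaged lower in SALL4 siRNA cells too, with overlapping libraries (-0.35, -0.68 to -0.01, adjusted p = 0.351). There it was 1 of 3 of the 18 genes under an unadjusted p of 0.05, where 20.5% of all genes at that level were. Between SALL4 and VRTN siRNA cells MSRB1 differed by 0.09 (-0.27 to 0.45). In DSCC1 siRNA cells 0 of 28 were called by edgeR, DESeq2 or limma-voom, where 0.0455% of all genes were called. GPX4 was the 1 gene under an unadjusted p of 0.05, where 7.83% of all genes at that level were. SEPHS2 was the 1 gene with all 3 DSCC1 siRNA libraries above the controls, where 6.64% were (0.48, 95% interval -0.29 to 1.25, adjusted p = 0.935).

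The summed level of the 30 genes was 984, 1102 and 1173 CPM in SEPHS1 siRNA cells, 1127, 1190 and 1234 in DSCC1, 1120, 1154 and 1200 in SALL4, 1187, 1135 and 1141 in VRTN, 1197 and 1149 in Luciferase and 1212 and 1216 in Control cells. SEPHS1 replicates 1 and 2 were the lowest of the 16 sums, and replicate 3 lay above Luciferase replicate 2. GPX1 and SELENON, the largest contributors by CPM, were among the genes with lower values in those libraries.

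Of 14 further genes of selenium biology outside the 30, SEPHS1 itself, the target of the siRNA, fell and 1 rose in SEPHS1 siRNA cells. Of all tested genes 0.602% were called higher there and 0.931% lower. SARS1, the seryl-tRNA synthetase that also loads the selenocysteine tRNA, had 58.8, 62.0 and 55.2 CPM in SEPHS1 siRNA cells, 54.7, 50.3 and 49.3 in DSCC1, 49.0, 58.1 and 50.9 in SALL4, 45.9, 38.0 and 57.6 in VRTN, 40.9 and 41.3 in Luciferase and 42.3 and 36.6 in Control cells. It rose in SEPHS1 siRNA cells (log2 fold change 0.54, SE 0.14, 95% interval 0.25 to 0.84, adjusted p = 0.0434), and each SEPHS1, DSCC1 and SALL4 siRNA library was above all 4 controls. The call was lost when any 1 of the 7 libraries was left out (adjusted p between 0.0554 and 0.151, log2 fold change 0.49 to 0.60). It was lost with 7 of the 12 other settings as well: the replicate block (adjusted p = 0.0596), a fit of the compared groups alone (adjusted p = 0.0518), limma-voom (adjusted p = 0.0534) and each of the 4 reduced sets of controls (adjusted p = 0.169 to 0.228). No gene of the other lists was called in SEPHS1 siRNA cells, where 1.53% of all genes were. These lists held 22 tested cysteine homologues and thiol redox enzymes, 15 tested NRF2 targets and 10 ferroptosis genes. They also held 10 nonsense-mediated decay factors and 12 genes of endoplasmic reticulum stress and degradation. Their median log2 fold changes, over members averaging at least 2 log2 CPM, were 0.08, 0.01, 0.15, -0.19 and -0.11, beside -0.03 for all genes at that level and -0.01 for the selenium genes. In the thiol redox list 5 of 15 such genes had all SEPHS1 siRNA libraries above the controls, where 7.8% of all genes at that level did. Against DSCC1 siRNA cells of the same 72 h, 2 of the 15 lay wholly above and 1 wholly below. Of all genes at that level 7.51% and 11.6% did so. The median log2 fold change in that comparison was -0.02 for the list and -0.02 for all genes.

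In SALL4 siRNA cells HMOX1, the haem oxygenase induced by NRF2, fell to 12.6, 13.2 and 22.7 CPM, against 46.2 and 59.1 in Luciferase and 52.0 and 80.0 in Control cells (-1.87, SE 0.22, adjusted p = 8.26e-07), while EPHX1, an epoxide hydrolase on the same list of NRF2 targets, rose to 137, 113 and 77.1 CPM, against 60.6 and 55.4 in Luciferase and 74.6 and 56.9 in Control cells (0.82, SE 0.15, adjusted p = 7.63e-04). These were the 2 of 15 tested NRF2 targets that changed, in opposite directions, where 2.98% of all genes did. In VRTN siRNA cells SLC3A2, a subunit of the cystine importer on the ferroptosis list, fell to 145, 137 and 174 CPM, against 179 and 222 in Luciferase and 213 and 258 in Control cells (-0.52, SE 0.11, adjusted p = 0.0108), the 1 of 10 on that list that changed, where 1.13% of all genes did. SLC3A2 missed the threshold without VRTN replicate 1 (adjusted p = 0.0894) or 2 (adjusted p = 0.115), Luciferase replicate 2 (adjusted p = 0.0675) or Control replicate 2 (adjusted p = 0.0708), with Luciferase alone as control (-0.40, adjusted p = 0.274), with the controls numbered 1 (-0.36, adjusted p = 0.396) and in a fit of the compared groups alone (adjusted p = 0.055).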

How the data were processed

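Polyadenylated RNA was sequenced as 80 bp single-end reads in 16 libraries, per the labels' protocols. The authors deposited 1 table of raw read counts per Ensembl gene, and per the submitters' processing notes STAR 2.4.0.1, HTSeq 0.9.1 and the build GRCh38 were used. The annotation release, the strand setting and the treatment of reads with several matches are not given in the sources used here. Genes with pseudogenes are uncertain to that extent (GPX1, SELENOK, SELENOT, SELENOW, MSRB1, SEPHS1 and SEPHS2 have 1 to 4 by name). The pseudogenes were found by name only, and how alike their sequences are was not examined. Gene symbols came from a table of names for 56558 of 60675 identifiers and from GENCODE 29 for 497, and 3620 stayed unnamed.

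Groups and replicate numbers came from the sample titles. The labels describe independent biological replicates. Counts were fitted with edgeR 4.0.16 in R 4.3.3 (quasi-likelihood, TMM scaling, low-count filter of filterByExpr, 1 model of 6 groups, 19772 genes), with Benjamini-Hochberg adjustment over all genes tested and a threshold of 0.05. CPM values use the TMM-scaled library size. Each knockdown was compared with both control siRNAs, Luciferase and Control weighing equally. Control against Luciferase gave 0 called genes with edgeR and 211 at an unadjusted p under 0.05. SEs and 95% intervals come from the same fit. Alternatives were DESeq2 1.42.0 (also its size factors), limma 3.58.1 voom, upper quartile scaling, other filters, other controls, a replicate block and leaving out each library. The fitting steps were tested on simulated data. Levels per kb used the union of exons in GENCODE 29, which also gave selenocysteine codons, overlaps and sequences.

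Values are given in every library for members called in any comparison and for SEPHS2, GPX4, TXNRD1, SELENOW, PSTK, SEPSECS, SECISBP2, EEFSEC and SCLY. From each of 6 further gene lists up to 5 called genes are named for SEPHS1 siRNA and up to 3 for each other knockdown. Other values given per library, and other genes named, were chosen after values were seen. The members, the lists and the comparisons were chosen with earlier results of these data known.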

Additional observations from a re-analysis of the deposited data

Results flagged for a closer look

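Knockdowns of the same harvest time were tested against each other, and the genes of the report that passed this test of the difference are given here. SELENOF was higher in SEPHS1 siRNA cells than in DSCC1 siRNA cells by 1.07 on the log2 scale, in 3 of 3 libraries against each of 3. SEPHS1 mRNA differed by -2.53 between SEPHS1 and DSCC1 siRNA cells, SEPHS1 siRNA being its own knockdown. SEPHS1 mRNA also differed by -0.78 between SALL4 and VRTN siRNA cells, neither of which received a SEPHS1 siRNA, with all 3 SALL4 siRNA libraries below all 3 of VRTN. Between SALL4 and VRTN siRNA cells HMOX1 differed by -1.51 and SLC3A2 by 0.77 (edgeR adjusted p = 4.77e-05 and 9.23e-05), and both passed in all 14 settings tried. TFRC, the transferrin receptor on the ferroptosis list, differed by -0.78 (adjusted p = 0.0464) and EPHX1 by 0.68 (adjusted p = 0.0132). TFRC lost the call in 7 of the 14 settings and EPHX1 in 5, with adjusted p up to 0.335 and 0.21 when 1 library was left out. VRTN mRNA differed by 2.76 between SALL4 and VRTN siRNA cells, VRTN siRNA being its own knockdown.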

How the results depend on the processing

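In DSCC1 and VRTN siRNA cells 0 of the 28 genes were called in all 19 settings tried for each. In SEPHS1 siRNA cells 0 were called in the reported fit, 1 with no filter on low counts, 2 with DESeq2 and 0 to 1 without each library. In SALL4 siRNA cells 1 was called in the reported fit, 0 with Luciferase alone or with the controls numbered 1, 2 with limma-voom (SELENOI and TXNRD3) and 0 to 1 without each library. For SEPHS1 against DSCC1 siRNA 1 was called in the reported fit, 0 with limma-voom and 0 to 1 without each library. For SALL4 against VRTN siRNA 0 were called in the reported fit, 1 with a stricter filter, with the replicate block, with DESeq2 or with limma-voom, and 0 to 1 without each library. No fold change of a gene called, or under an unadjusted p of 0.05, in that comparison reversed its sign, while SELENOM (-0.01 for SALL4 against VRTN siRNA) changed sign with the DESeq2 size factors, and the cause of the lost or added calls was not tested. Counts over all genes moved more, and are given with their range over the other settings and then without each library: 303 in SEPHS1 siRNA cells (103 to 533, 135 to 472), 9 in DSCC1 (2 to 109, 2 to 98), 590 in SALL4 (236 to 1291, 275 to 924), 223 in VRTN (89 to 397, 135 to 271), 53 for SEPHS1 against DSCC1 (24 to 188, 22 to 71) and 482 for SALL4 against VRTN (193 to 897, 248 to 879). The replicate numbers were not taken as pairs: over 36 pairs of libraries with the same number in different groups the correlation of deviations from the group means was -0.316 to 0.363, over 0.1 in 9, and 8 of 16 libraries correlated best with one of their own number. Over 70 pairs with different numbers the correlation was -0.423 to 0.423, over 0.1 in 13. The 2 libraries of a control siRNA deviate from their mean by equal and opposite amounts, so part of these values is fixed in advance. Depth limits the 10 sparse genes most, whose intervals in SEPHS1 siRNA cells reach past a 2-fold change.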

Other observations

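The 5 of 15 thiol redox genes with all SEPHS1 siRNA libraries above the controls were named after their values were seen, and none of them passed the test in edgeR. Thioredoxin TXN, the substrate of TXNRD1, averaged 15.8 CPM in SEPHS1 siRNA cells and 8.74 CPM in controls (log2 fold change 0.86, 95% interval 0.32 to 1.40, adjusted p = 0.106). Of the 6 peroxiredoxins, which reduce peroxides with cysteine in place of selenocysteine, 3 were among them. PRDX6 averaged 322 CPM in SEPHS1 siRNA cells and 254 CPM in controls (0.34, 0.13 to 0.56, adjusted p = 0.0999), PRDX1 388 CPM in SEPHS1 siRNA cells and 314 CPM in controls (0.31, 0.09 to 0.52, adjusted p = 0.173), and PRDX5 15.6 CPM in SEPHS1 siRNA cells and 10.8 CPM in controls (0.53, 0.04 to 1.02, adjusted p = 0.353). PRDX2, PRDX3 and PRDX4 overlapped the controls, with log2 fold changes of -0.09, -0.03 and -0.29. In DSCC1 siRNA cells PRDX1, PRDX2 and PRDX6 lay above all controls (0.23, 0.24 and 0.29), also without being called. They were the 3 of the 15 thiol redox genes that did so there. Of all genes averaging at least 2 log2 CPM 6.64% did. GLRX5, a mitochondrial glutaredoxin of iron-sulfur cluster assembly, averaged 26.3 CPM in SEPHS1 siRNA cells and 17 CPM in controls (0.63, 0.22 to 1.04, adjusted p = 0.121). Set beside the DSCC1 siRNA libraries of the same 72 h, the SEPHS1 siRNA libraries lay wholly above for PRDX5 and GLRX5. For TXN, PRDX1 and PRDX6 they overlapped.

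Among the nonsense-mediated decay factors, 3 of the 9 averaging at least 2 log2 CPM (SMG5, SMG6 and SMG9) had all SEPHS1 siRNA libraries below the controls, where 10.4% of all genes at that level did, also noted after their values were seen. SMG1, the kinase of the pathway, averaged 55.9 CPM in SEPHS1 siRNA cells and 70.3 CPM in controls with overlapping libraries (-0.33, 95% interval -0.62 to -0.03, adjusted p = 0.338). SMG5 averaged 96.8 CPM in SEPHS1 siRNA cells and 115 CPM in controls (-0.24, 95% interval -0.50 to 0.01, adjusted p = 0.405), and UPF1, the central helicase of the pathway, 54.7 CPM in SEPHS1 siRNA cells and 65.9 CPM in controls with overlapping libraries (-0.27, -0.56 to 0.03, adjusted p = 0.434). SELENOF binds UGGT1, which averaged 44.2 CPM in SEPHS1 siRNA cells and 50.6 CPM in controls (-0.19, -0.51 to 0.13, adjusted p = 0.647).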
